A study of Mus musculus with 2 samples.

Results

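Genes for the enzymes that move nucleosomes and that add or remove acetyl groups on histones are described here by the KMT2D binding found at them. The set holds 44 named mouse genes: 26 chromatin remodeller genes, 9 acetyltransferase genes and 9 deacetylase genes. A KMT2D peak was tied to a gene when its summit, the position of highest signal, lay inside the gene or within 10 kb of it. By this rule 16 of the 44 genes had at least 1 summit, and they shared 21 of the 3738 peaks in the list. The genes were named with earlier results from the same peak list known, so the counts describe these genes and test nothing. For scale, 12.1% of all 21770 protein-coding genes had a summit by the same rule.

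The peaks come from wild-type HT22 cells, an immortalised mouse hippocampal line, labelled as a wild-type clone and harvested at 70% confluency. Chromatin was precipitated with an antibody to KMT2D in 1 library, and an input library made without antibody served as the control. Both libraries share the genotype and carry no other treatment, and the line with a deleted SET domain, the catalytic part of KMT2D, is not analysed here. Nothing was replicated, so no test between groups was possible, and the intervals below cover counting error only. The fold of a peak is the authors' value from their peak caller: ChIP fragments over local background at the summit. A peak list does not measure expression, so it could not check the identity of the line. Summits by the same rule were present at 0 of 10 neuron marker genes, 0 of 6 astrocyte and oligodendrocyte marker genes, and 1 of 6 fibroblast marker genes (Col1a1). The Col1a1 summits lay 7097 and 8057 bp outside the gene. With a share of 12.1% over all protein-coding genes, lists this short do not tell cell types apart. Counts of 0 in lists this short allow up to 3 of 10 and 3 of 6 such genes.

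KMT2D is a methyltransferase that marks lysine 4 of histone H3, mainly at enhancers and also at promoters. Remodellers use ATP to slide or evict nucleosomes: SWI/SNF complexes open chromatin, ISWI enzymes space nucleosomes, and CHD enzymes include the motor of the NuRD complex, which joins remodelling to deacetylation. Acetyltransferases such as EP300 and CREBBP neutralise histone lysines at active enhancers and promoters, and deacetylases reverse this. In neurons both sides of that balance are known for their part in activity-dependent transcription and memory.

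At 5 of the genes a summit lay inside the 300 bp promoter window of the RefSeq table (GRCm38.p6, the assembly behind mm10), which runs from 250 bp before a transcription start to 50 bp after it. These promoters are printed because they hold a summit, though not every base of them lies under the peak. Of the 300 bases of each window, the peak covered 283 in Hdac7, 166 in Hdac5, 213 in Hdac2, 300 in Arid1a and 232 in Sirt1. Each is given from 5′ to 3′ on the strand of its gene, with capitals marking the motif matches listed after them. The windows are chr15:97831446-97831745 on the minus strand for Hdac7, chr11:102230123-102230422 on the minus strand for Hdac5, chr10:36974294-36974593 on the plus strand for Hdac2, chr4:133756720-133757019 on the minus strand for Arid1a and chr10:63338986-63339285 on the minus strand for Sirt1. Counted from the 5′ end, the summit fell on base 97 of the Hdac7 window, base 248 of Hdac5, base 85 of Hdac2, base 164 of Arid1a and base 217 of Sirt1.
Hdac7: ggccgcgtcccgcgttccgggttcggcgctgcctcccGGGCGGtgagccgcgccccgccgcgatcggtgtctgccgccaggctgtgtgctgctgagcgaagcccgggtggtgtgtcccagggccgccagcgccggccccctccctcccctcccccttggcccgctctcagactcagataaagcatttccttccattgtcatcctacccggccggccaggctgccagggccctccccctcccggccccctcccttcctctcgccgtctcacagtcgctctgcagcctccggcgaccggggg
Hdac5: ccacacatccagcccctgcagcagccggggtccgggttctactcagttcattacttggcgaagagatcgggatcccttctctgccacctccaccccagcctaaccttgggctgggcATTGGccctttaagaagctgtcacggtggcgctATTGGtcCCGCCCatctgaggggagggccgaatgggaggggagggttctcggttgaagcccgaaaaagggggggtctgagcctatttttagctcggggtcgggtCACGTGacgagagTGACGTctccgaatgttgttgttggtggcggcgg
Hdac2: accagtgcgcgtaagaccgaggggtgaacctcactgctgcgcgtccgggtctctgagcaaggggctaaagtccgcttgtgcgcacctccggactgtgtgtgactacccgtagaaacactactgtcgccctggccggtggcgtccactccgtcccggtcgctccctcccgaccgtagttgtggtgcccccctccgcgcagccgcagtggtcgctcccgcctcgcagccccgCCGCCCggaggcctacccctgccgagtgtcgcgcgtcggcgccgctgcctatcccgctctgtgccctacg
Arid1a: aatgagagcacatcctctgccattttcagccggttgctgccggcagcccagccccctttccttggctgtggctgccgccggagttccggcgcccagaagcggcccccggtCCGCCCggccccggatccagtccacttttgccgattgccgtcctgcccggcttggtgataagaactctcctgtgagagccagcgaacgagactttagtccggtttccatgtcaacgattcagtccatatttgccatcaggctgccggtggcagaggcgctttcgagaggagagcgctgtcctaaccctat
Sirt1: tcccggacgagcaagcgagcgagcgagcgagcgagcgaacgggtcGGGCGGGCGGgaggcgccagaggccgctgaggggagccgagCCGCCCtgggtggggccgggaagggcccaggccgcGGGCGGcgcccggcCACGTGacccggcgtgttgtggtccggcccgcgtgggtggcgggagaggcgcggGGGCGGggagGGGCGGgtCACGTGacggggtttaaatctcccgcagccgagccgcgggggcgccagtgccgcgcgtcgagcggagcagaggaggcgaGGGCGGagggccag

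Short motifs, each spelled out below, were searched on both strands of the 21262 promoter windows of protein-coding genes, and a match is a description of the letters only. All 5 printed promoters held the GC box GGGCGG, which 46.2% of all windows and 34 of the 45 windows of the genes described here also held. The E-box CACGTG was present in the Hdac5 and Sirt1 windows, against 7.84% of all windows and 6 of those 45. In Sirt1 it occurred at bases 136 to 141 and at bases 208 to 213, the second ending 4 bp before the summit base. In Hdac5 it occupied bases 254 to 259, next to the summit at base 248, and TGACGT, the core of a cAMP response element, followed at bases 267 to 272. TGACGT was in 8.49% of all windows, and CCAAT, which occurred 2 times in Hdac5 and in none of the other 4 windows, in 38.2%. None of the 5 held the ETS motif CCGGAAG or the AP-1 motif TGACTCA, which 11.6% and 4.66% of all windows held. In Sirt1, 2 of 7 GC boxes overlapped each other. No other matches overlapped. The only GC box of Hdac2, at bases 231 to 236, lay outside the peak. So did the Sirt1 GC box at bases 287 to 292 and the Hdac5 CCAAT at bases 117 to 121.

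The printed promoters were rich in CpG, a dinucleotide frequent in the promoters of broadly expressed genes. Observed over expected CpG was 1.09 in Sirt1, 1.01 in Hdac2, 0.795 in Hdac7, 0.787 in Arid1a and 0.66 in Hdac5. These values are for the printed windows alone. The values below take each gene as the median over all its windows. By that measure Hdac7, with 4 starts, had 0.539 and Arid1a, with 2, had 0.818. The median over the 34 genes of the set with a RefSeq start was 0.862, against 0.565 over 17491 protein-coding genes. Within the set, the 7 genes with a summit within 2 kb of a start had a median of 0.818, and the other 27 had 0.864. Values in the set ran from 0.102 to 1.09, and 7 of the 34 genes, Hdac7 among them, were below the median of all protein-coding genes.

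Among the remodellers, 8 of 26 genes (30.8%) had a summit, beside 12.1% of all protein-coding genes. The 5 of these 8 genes that belong to SWI/SNF encode subunits other than the motor. Neither SWI/SNF motor gene had one: the nearest summit lay 25285 bp from Smarca4 and 586330 bp from Smarca2. The strongest remodeller peak was beside Smarcc2, which encodes a core scaffold subunit, at chr10:128458349-128458670, with a fold of 6.75 (95% Poisson interval 5.03 to 8.88) from 49 ChIP fragments over a background of 6.41. Its summit lay 682 bp outside the gene and inside a tRNA gene for serine, n-TScga2. The microRNA gene Mir8105 was 180 bp away. The assignment of this peak to Smarcc2 therefore rests on distance alone.

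Arid1a, the DNA-binding subunit that defines one form of SWI/SNF, had 2 peaks, 1 for each of its 2 RefSeq starts. The outer one, at chr4:133756636-133757050, had its summit 87 bp before the first start with a fold of 3.54 (2.32 to 5.20). The inner one, at chr4:133754182-133754570, lay 416 bp before the second start with a fold of 4.14 (2.84 to 5.85). The intervals overlapped, so neither start was distinguishable as the stronger. The paralog Arid1b, with a gene of 353 kb, had its nearest summit 458542 bp away.

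Smarcb1, a core subunit and tumour suppressor, had a summit 2338 bp inside the far end of its gene, 22507 bp after the start, at chr10:75899049-75899325 with a fold of 3.42 (2.33 to 4.86). Bcl7a, an accessory subunit gene, had one 204 bp inside its end of lower coordinate, at chr5:123344626-123344857 with a fold of 2.96 (1.96 to 4.32). That position is also inside the lncRNA gene Gm15860, 490 bp from its end. Bcl7b was tied to a pair of peaks 4997 and 5672 bp past its end, with folds of 3.14 (2.18 to 4.39) and 2.62 (1.78 to 3.73). Both belong by position to the neighbouring gene Baz1b, whose RefSeq start was 474 and 201 bp from these summits and which itself encodes a partner of ISWI remodellers. The third paralog, Bcl7c, had no summit within 68538 bp.

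Of the 8 CHD genes in the set 3 had a summit, beside 12.1% of all protein-coding genes, and the 3 peaks were of unlike kinds. Chd3, a NuRD motor, had a summit 862 bp inside the end of higher coordinate, at chr11:69368544-69368766 with a fold of 3.01 (2.03 to 4.30). The lncRNA gene Gm32483 was nearer, at 353 bp. Chd4, the other main NuRD motor, had its summit 5992 bp outside the gene on the start side, at chr6:125089726-125090242. Its fold of 3.77 (2.28 to 5.91) rested on 17 ChIP fragments, the fewest of the 21 peaks, and Lpar5 was nearer at 3859 bp. Chd9 had the peak farthest inside a gene, 48983 bp from the nearer end of 226 kb, at chr8:90877020-90877527 with a fold of 3.05 (2.15 to 4.21). Chd1, Chd2, Chd6, Chd7 and Chd8 had none, and neither did the ISWI motors Smarca1 and Smarca5.

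**Figure D1:**
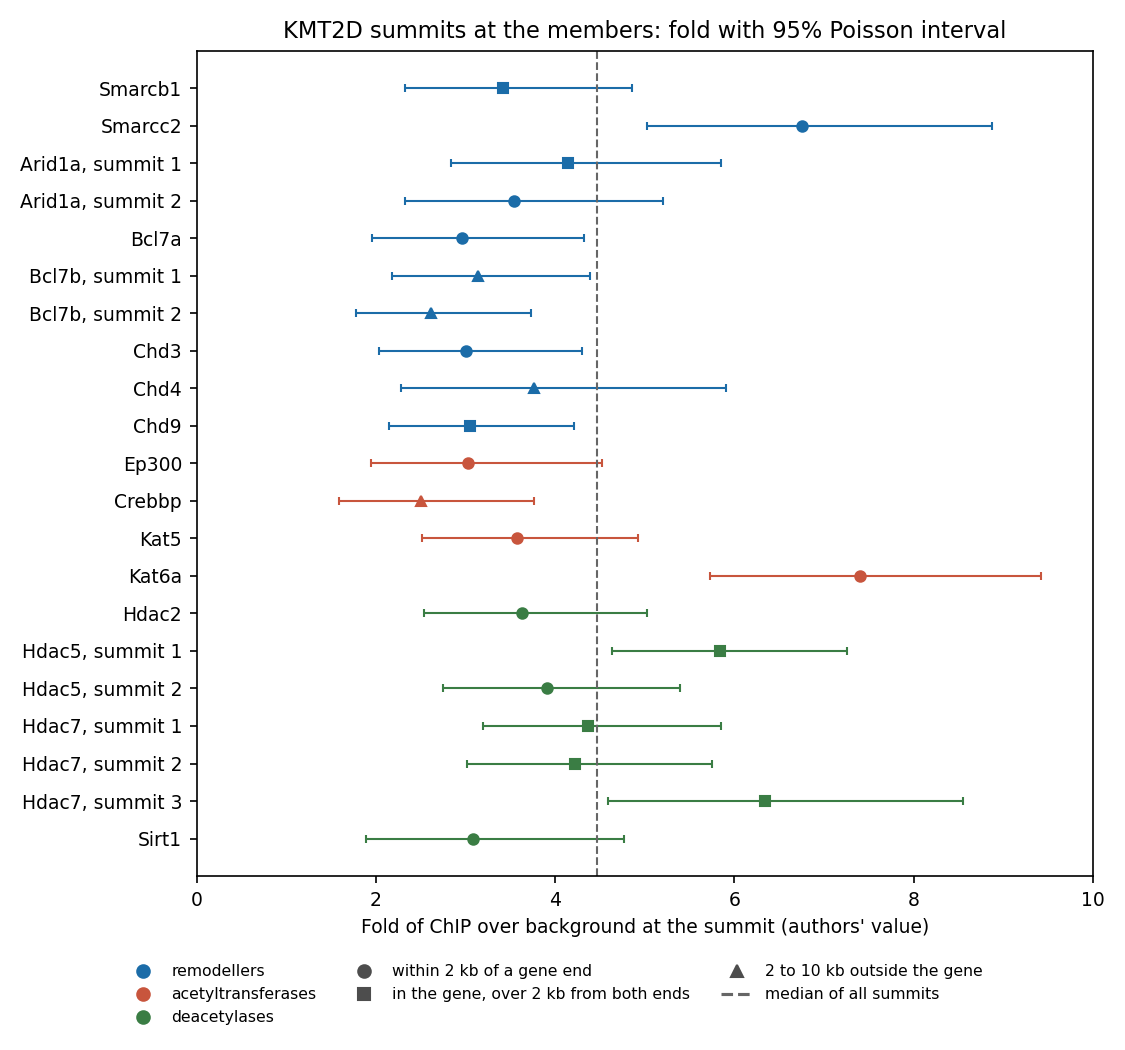
Fold of ChIP over background (x axis, the authors' value) for each of the 21 summits (y axis, numbered by rising coordinate where a gene has several), with exact 95% Poisson intervals of the ChIP pileup; color gives the class, shape the place relative to the gene, and the dashed line the median of all summits, 4.47. Kat6a (7.40), Smarcc2 (6.75), one Hdac7 summit (6.34) and one Hdac5 summit (5.84) are the 4 above that line.

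Acetyltransferase genes had a summit in 4 of 9 cases (44.4%), beside 12.1% of all protein-coding genes. Of their 4 peaks, 1 stood well above the other 3. Kat6a, which encodes a MYST-family acetyltransferase of histone H3, had its summit 45 bp inside the end of lower coordinate, at chr8:22859234-22859590. The fold was 7.40 (5.73 to 9.42) from 64 ChIP fragments over a background of 7.78, and ranked 385 of 3706 summits. This summit also lay inside the lncRNA gene Gm46036, 952 bp from its end. Kat6b, the paralog of Kat6a, had no summit within 560643 bp.

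EP300 and CREBBP are paralogous coactivators, and their genes were tied to peaks in different ways. The Ep300 summit lay 467 bp before its start, at chr15:81585563-81585851, with a fold of 3.03 (1.95 to 4.52) from 22 fragments. For Crebbp the summit was 3452 bp beyond the finish of the gene, at chr16:4077694-4078003, with a fold of 2.50 (1.59 to 3.77), the lowest of the 21. That place is 72 bp from the start of Trap1, a mitochondrial chaperone gene, and no summit lay within 10 kb of the start of Crebbp itself. Kat5, the catalytic subunit of the TIP60 complex, was similar: its summit was 941 bp past the finish, at chr19:5601971-5602183, with a fold of 3.57 (2.52 to 4.93). It lay inside Rnaseh2c, 200 bp from that gene's start. So 2 of the 4 acetyltransferase genes held their peak through a neighbour. Kat2a and Kat2b, the catalytic subunits of SAGA-type complexes, had none, and nor did Kat7 or Kat8.

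Deacetylase genes had a summit in 4 of 9 cases (44.4%), beside 12.1% of all protein-coding genes. For all 4 the nearest protein-coding gene, by distance to the gene body, was the deacetylase gene itself. They carried 7 peaks, of which 5 were at the class IIa genes Hdac5 and Hdac7. Having more than 1 summit applied to 4 of the 44 genes and to 2.74% of all protein-coding genes. Having 3 or more applied to Hdac7 alone within the set and to 0.781% of all protein-coding genes.

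Hdac7, a signal-responsive class IIa deacetylase, had its 3 peaks spread over 25.4 kb within the gene. The one nearest the outermost start, at chr15:97837613-97837910, was 6781 bp inside the gene with a fold of 6.34 (4.59 to 8.55). The middle one, at chr15:97831463-97831799, had a fold of 4.22 (3.02 to 5.75) and lay between 2 internal RefSeq starts. Its summit was 118 bp after the one and 154 bp before the other, whose promoter is printed above. The innermost, at chr15:97812206-97812458, had a fold of 4.37 (3.19 to 5.85) and lay 2520 bp after the nearest of the 4 RefSeq starts. No summit lay at the outermost start. The 2 outer summits were also inside the lncRNA gene Gm33636, with its nearer end 4312 and 963 bp away. For the innermost summit Gm33636 was 18343 bp away and the nearer Hdac7 end 19682 bp.

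Hdac5, also class IIa, had a pair of peaks. One had its summit 3 bp before the start, at chr11:102230065-102230288, with a fold of 3.91 (2.75 to 5.39). It was 25 bp from Mir8101, a microRNA gene at the beginning of Hdac5. The other lay 11145 bp after the start inside the gene, at chr11:102218867-102219172, and had a fold of 5.84 (4.63 to 7.26) from 78 ChIP fragments, the most of the 21 peaks. Its background of 12.5 fragments was also the highest of the 21. Their intervals overlapped. The remaining class IIa genes, Hdac4 and Hdac9, are the longest deacetylase genes at 267 and 870 kb and had no summit within 111980 and 761411 bp.

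Single promoter peaks were found at Hdac2 and Sirt1. HDAC2 is a class I deacetylase studied in neurons for its hold on memory-related genes, and the summit in its gene lay 166 bp before the RefSeq start, at chr10:36974303-36974515, with a fold of 3.63 (2.54 to 5.03). SIRT1 is an NAD-dependent deacetylase, and the summit was 34 bp before its start, at chr10:63339054-63339319, with a fold of 3.08 (1.89 to 4.77) from 18 fragments. Both peaks were lower than the median of the list. The close paralog of Hdac2, Hdac1, had no summit within 199899 bp, and Hdac3 and Sirt2 had none within 217548 and 164329 bp.

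**Figure D2:**
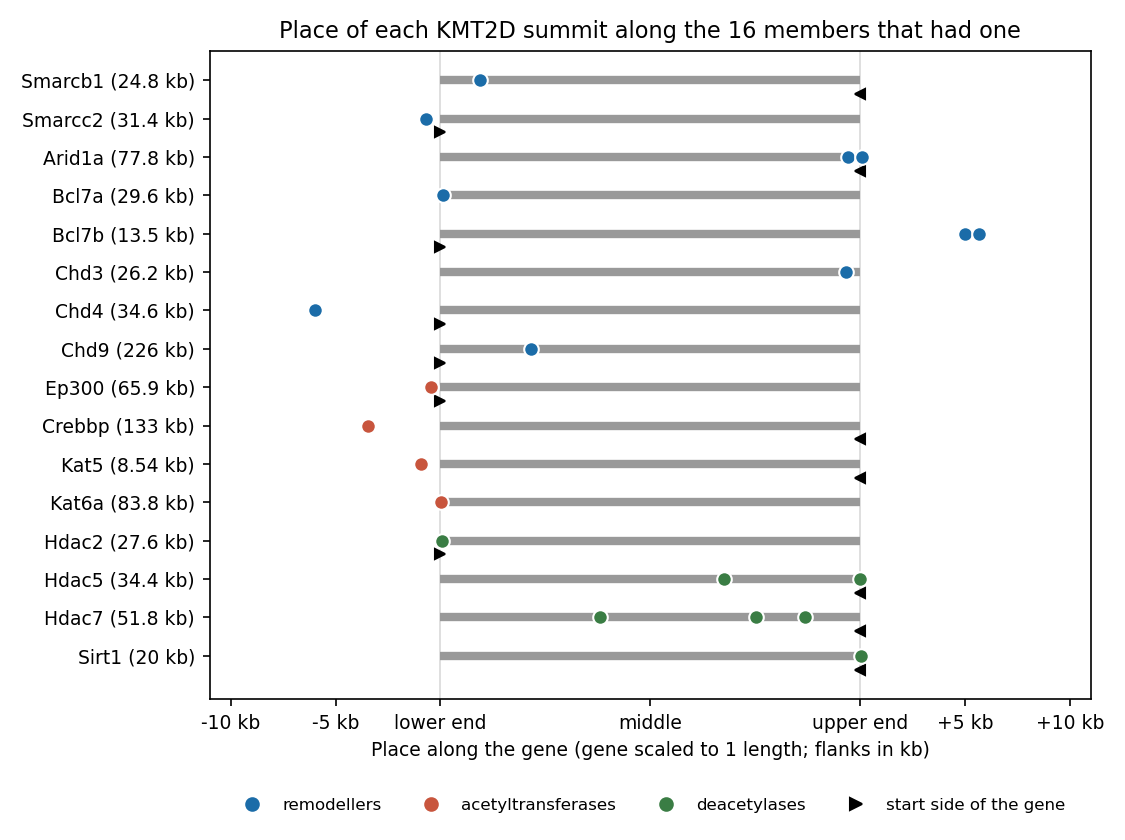
Place of the 21 summits (points, colored by class) along the 16 genes that had one; each gene is scaled to the same length from its end of lower coordinate to its end of higher coordinate (x axis), the flanks are in kb, and black arrowheads mark the start side where the RefSeq table gives a strand. Bcl7a, Chd3 and Kat6a have no arrowhead. Of the summits, 10 sit within 2 kb of an end, inside or just outside the gene, and 7 lie deeper inside. The other 4, at Bcl7b, Chd4 and Crebbp, lie 2 to 10 kb outside.

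By position, 10 of the 21 summits lay within 2 kb of an end of their gene, 7 were deeper inside, and 4 were 2 to 10 kb outside. The 10 belonged to 10 of the 44 genes, while 5.08% of all protein-coding genes had a summit within 2 kb of an end. A summit inside the gene itself was found in 9 of the 44, against 6.72% of all protein-coding genes. Counting the ends of neighbours too, 13 of the 21 (61.9%) were within 2 kb of the end of a protein-coding gene. Among all 2590 summits tied to a protein-coding gene this share was 38.8% (Wilson 95% interval 37.0 to 40.7). The start of a protein-coding gene was within 500 bp for 11 of the 21 (52.4%), against 23.4% (21.8 to 25.1) of all tied summits. Of those 11, 7 were at a start of the gene itself, and 4 at a start of Baz1b, Trap1 or Rnaseh2c. Starts were known for 34 of the 44 genes and for 17491 of the 21770 protein-coding genes. Bcl7a, Chd3 and Kat6a had none, so their summits could not count at a start of their own. The genes were named with earlier gene-end results known, so nothing is read from these differences.

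Most of the peaks were of modest height. Their median fold was 3.57 (range 2.50 to 7.40), against 4.34 for all tied summits and 4.47 for all 3706 summits on chromosomes 1 to 19, X and Y. Only 4 of the 21 were above the latter. The median ChIP pileup was 32 fragments against 30 for all tied summits, while the median background was 7.78 against 6.14. Summits at gene ends were lower in the whole list as well: within 2 kb of an end the medians were 3.14 for 13 summits of the set and 3.72 for all 1006, and farther away 4.18 for 8 and 4.73 for 1584. By class the median fold was 3.28 for the 10 remodeller summits, 3.30 for the 4 acetyltransferase summits and 4.22 for the 7 deacetylase summits. The ranges of the 3 classes overlapped, at 2.62 to 6.75, 2.50 to 7.40 and 3.08 to 6.34. No background exceeded 12.5 fragments. Among the stronger peaks, with a −log10 q of at least the list median of 8.21, 4 of the 44 genes had a summit, against 5.92% of all protein-coding genes. These were Smarcc2, Kat6a, Hdac5 and Hdac7, and the same 4 had a summit of fold 5.77 or more, the upper quartile of the list, against 3.03% of all.

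Some summits lay nearer to a non-coding RNA gene, measured to its ends, than to an end of the member. The Smarcc2 summit was inside a tRNA gene, and the Chd3 summit and the 3 of Hdac7 were nearer to a lncRNA gene. For Hdac7 this holds only against the outer ends of the gene, since all 3 summits lay inside it. The middle one was 118 bp from an internal Hdac7 start and 963 bp from the lncRNA end. The innermost was 2520 bp from an Hdac7 start and 18343 bp outside the lncRNA gene. Another 5 summits, those of Bcl7b, Chd4, Crebbp and Kat5, had a different protein-coding gene nearest. Here distance was measured to the gene body, so a summit inside a gene counted as nearest to it. Measured to gene ends, Slc48a1 (19651 bp) was nearer to the innermost Hdac7 summit than Hdac7 (19682 bp). Leaving out the first 5 (at Smarcc2, Chd3 and Hdac7) left 13 genes with a summit, and leaving out the second 5 left 12. The share over all protein-coding genes was not computed under either filter. The unfiltered 12.1% is no scale for these counts, and nothing is read from them.

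**Figure D3:**
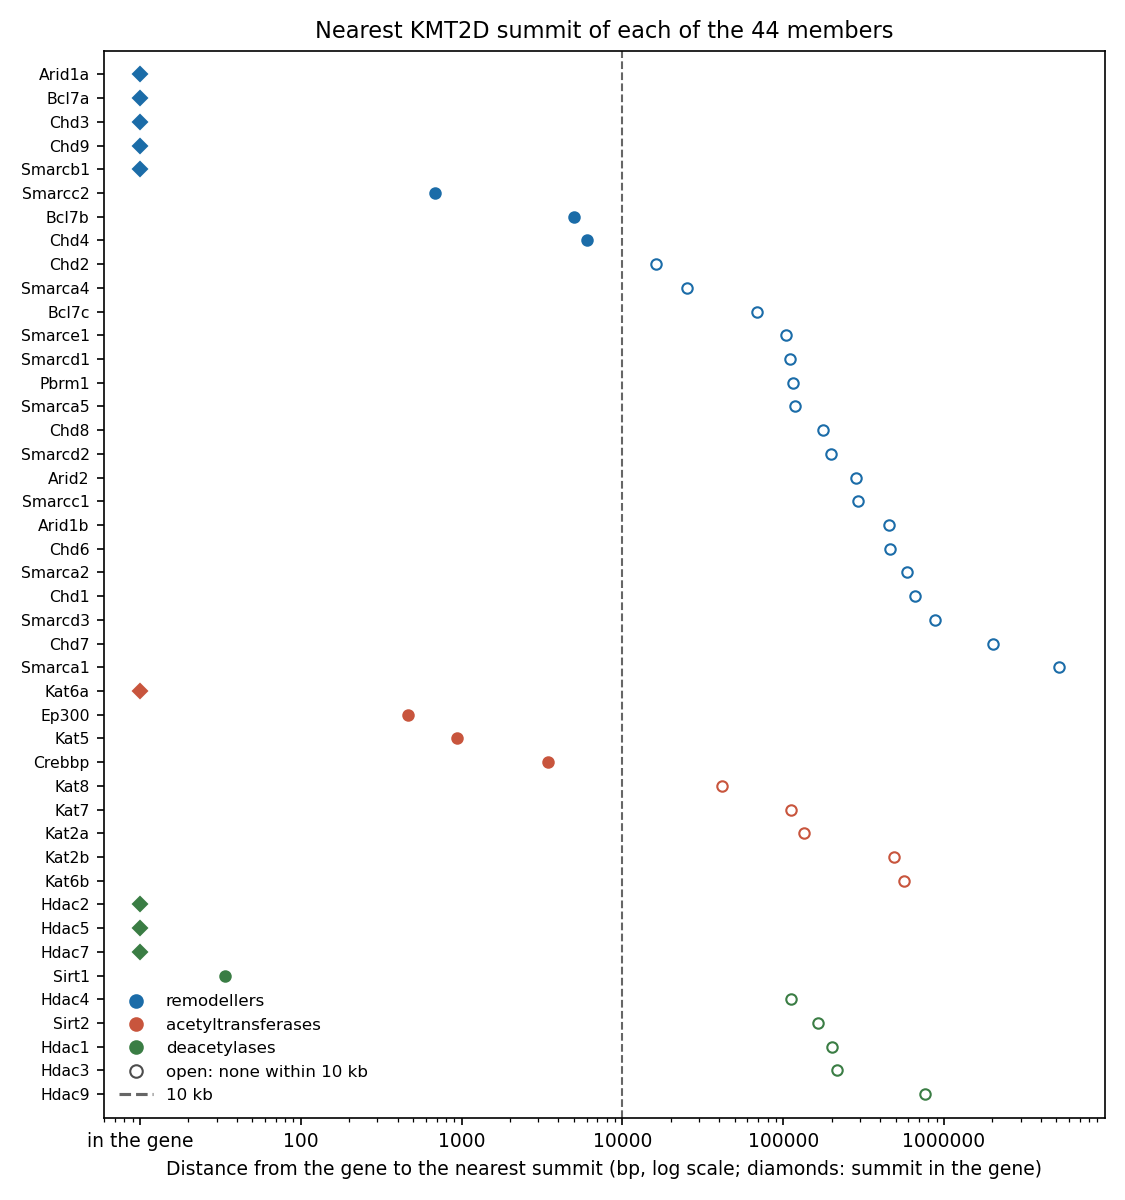
Distance in bp (log axis) from each of the 44 genes (y axis, grouped by class and ordered by distance) to the nearest KMT2D summit; diamonds at the left are genes with a summit inside, filled points lie within the dashed 10 kb line and open points beyond it. The farthest gene within the line is Chd4 (5992 bp) and the nearest beyond it is Chd2 (16109 bp), so no gene lies close to the line.

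The 28 genes without a summit were mostly far from any. Just inside the 10 kb limit were Chd4 at 5992 bp and Bcl7b at 4997 bp, and just outside it Chd2 at 16109 bp and Smarca4 at 25285 bp. Of the 28, 24 were more than 100 kb from a summit. No share over all protein-coding genes stands beside this count, so it is not read as a feature of these genes. The longest distance, 5222611 bp, was at Smarca1, an ISWI motor gene on chromosome X. The SWI/SNF subunit genes Smarcc1, Smarcd1, Smarcd2, Smarcd3, Smarce1, Arid2 and Pbrm1 lay between 104246 and 874833 bp from one. Absence from the list means that no peak was called at this depth, not that KMT2D was absent.

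Gene length sets the size of the window searched, and the genes of the set were long, with a median of 49.5 kb against 17.2 kb for all protein-coding genes. Those with a summit were the shorter ones: their median was 32.9 kb, against 75.4 kb for the 28 without. Between 20 and 100 kb, 12 of 23 genes had a summit, while 13.8% of all protein-coding genes of that length did. Over 100 kb, 2 of 14 did (Crebbp and Chd9), against 20.5% of all genes of that length, and under 20 kb 2 of 7 (Bcl7b and Kat5), against 9.27%. Both of those under 20 kb and Crebbp held their peaks beside the start of a neighbour.

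**Figure D4:**
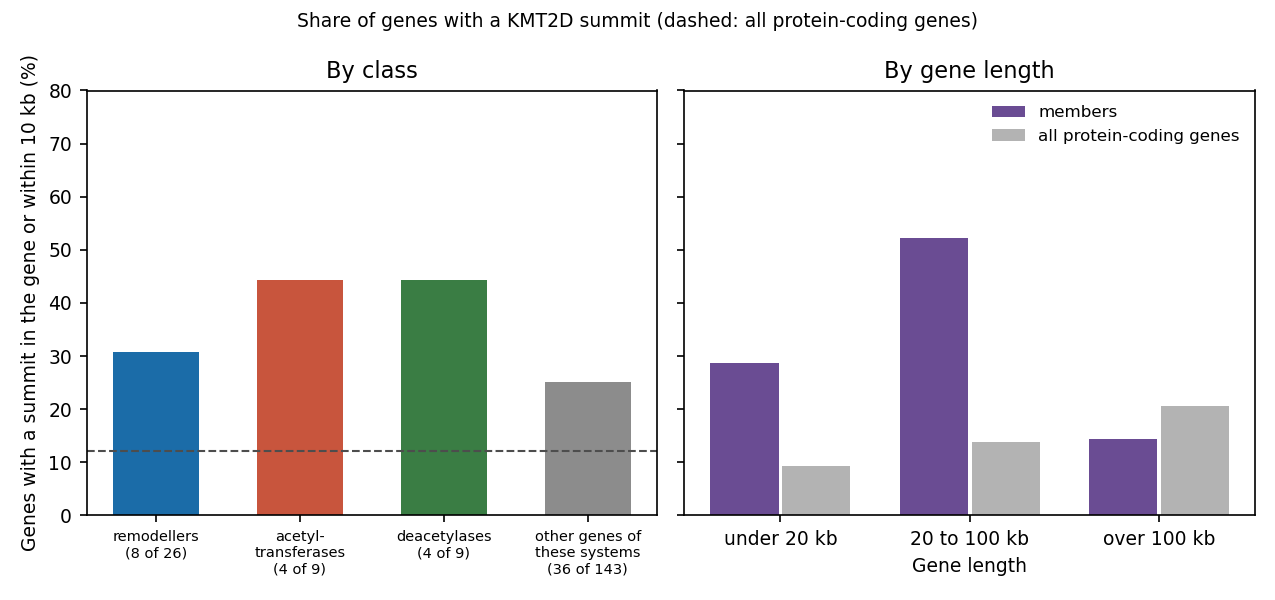
Percent of genes with a summit in the gene or within 10 kb (y axis): left, by class, with the 143 other genes of these systems in grey and all protein-coding genes as a dashed line at 12.1%; right, by gene length, for the 44 genes (purple) and all protein-coding genes (grey). Bars are counts over fixed lists and carry no error; in the purple bars the middle length class is highest (52.2%) and the longest lowest (14.3%), while the grey bars rise with length from 9.27 to 20.5%.

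The other genes of these systems, 143 in 10 lists, were read by the same rule. Of these, 36 (25.2%) had a summit, beside 12.1% of all protein-coding genes. These lists too were written with earlier results known. Among further SWI/SNF subunits 4 of 13 had one, with folds of 5.91 at Bicral, which had 4 summits in the gene, 5.80 at Bicra and 2.90 at Ss18. The Bicra summit lay inside Ehd2. The list of partners of CHD remodellers and NuRD had 6 of 12, with 5.23 at Mta1, 3.94 at Cdk2ap1 and 3.59 at Chd5. Chd5 is itself a CHD gene, outside the 8 in the set, and not a partner. Rbbp7, also counted there, had its 2 summits over backgrounds of 48.0 and 59.7 fragments. ISWI partners had 1 of 9 (Baz1b, described above), the INO80 and SRCAP class 1 of 15 (Ino80c, 8.77) and further SNF2 motors 1 of 12 (Btaf1, 2.52).

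On the acetylation side, partner subunits and further enzymes were counted apart, and no difference between these lists was tested. Partners of acetyltransferases had 11 of 35, with folds of 10.7 (8.13 to 13.8) at Zzz3, a subunit of the ATAC complex, 6.39 at Kansl2 and 6.03 at Jade2. Partners of deacetylases had 7 of 25, with 6.40 at Tbl1x and 6.16 at Mideas among them. Further acetyltransferases had 1 of 9 (Gtf3c4, 3.96, inside Ddx31), and further deacetylases 2 of 9 (Sirt4, 3.99, and Sirt5, 3.15). The Sirt5 summit lay 3354 bp outside Sirt5 and inside Nol7. Of the BET readers of acetyl-lysine 2 of 4 had one, Brd3 (7.05) and Brd2 (4.73).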

How the data were processed

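The deposited file is 1 peak list made by the authors from 1 KMT2D ChIP library set against 1 input library. The submitters' processing notes name mm10 as the build and Bowtie2, Picard and MACS2 as tools, without versions or settings. The deposited values per peak are a fold or ratio of ChIP to background, the −log10 p-value, the −log10 q-value (lowest 1.32), a score, which was not used, and the offset of the summit. The list has no depth per library. ChIP fragments and background were therefore solved from each deposited fold and p-value, assuming MACS2's formulas, to within 0.001 of the −log10 p, for 3683 of 3706 summits and all 21 described. Each fold has an exact 95% Poisson interval, from that pileup with the background fixed.

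Genes came from a RefSeq table of GRCm38.p6: 49591 of 49997 lie on the main sequence of chromosomes 1 to 19, X and Y, and 21770 of these are protein-coding. All 44 members matched by symbol. Starts and strands came from the RefSeq promoter table, which matched 34 members. Exons were not used here. Members and lists were chosen with earlier results of these data known. Every member is accounted for, up to 3 genes of highest fold are named in each other list, except 1 that is not reported here, and the genes named outside that rule (Rbbp7, Col1a1) were chosen after their values were seen. Pileup recovery and summit assignment were tested on simulated data. The simulated peaks were made with the same assumed formulas, so this could not check whether the authors' peak caller used them. Python 3.11.15, numpy 2.4.6, pandas 2.3.3, scipy 1.17.1 and matplotlib 3.10.9 were used. Alternatives were windows of 2, 5 and 20 kb, the gene body alone, stricter peaks, whole intervals, the nearest gene, and peaks left out.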

Additional observations from a re-analysis of the deposited data

How the results depend on the processing

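Of the 44 genes, 16 had a summit with the 10 kb window, beside 12.1% of all protein-coding genes. With a window of 2 kb 13 did, beside 8.82%, with 5 kb 15, beside 10.1%, and with 20 kb 17, beside 15.7%. With the gene body alone 9 did (5 remodellers and 1 acetyltransferase), beside 6.72%. With a −log10 q of at least the list median (8.21), 4 genes remained of the 16: Smarcc2, Kat6a, Hdac5 and Hdac7 (1 remodeller, 1 acetyltransferase and 2 deacetylases), with a median fold of 6.09, where 5.92% of all protein-coding genes had a summit. The same 4 genes remained in the upper quartile of fold (again 1, 1 and 2), with a median fold of 6.55, against 3.03% of all protein-coding genes. Counting only summits whose nearest protein-coding gene is the member left 2 acetyltransferases, Ep300 and Kat6a. No share over all protein-coding genes was computed for that filter. The share of summits within 2 kb of a member end, 47.6% with the main settings, ran from 33.3% to 58.8% over the 10 alternatives. All of these lay within its Wilson 95% interval of 28.3 to 67.6. That interval rests on 21 summits and is wide, so staying inside it says little about stability. Whole peak intervals gave the same counts. Leaving out peaks of background above 20 fragments could not change them, because no background at the 21 summits exceeded 12.5. No paired analysis was possible because each group has 1 library. Pileups of 17 to 78 fragments limit the precision of every fold given.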
